A study of Mus musculus with 4 samples.

Results

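Natural killer (NK) cells of the mouse eye wall at 1 month were described from droplet single-cell RNA sequencing of eye tissue. It held the RPE (retinal pigment epithelium), which nourishes the photoreceptors, and the choroid, its blood supply. The members were chosen by their own RNA: kept barcodes (300 or more genes, mitochondrial UMIs up to 30%) with at least 1 UMI of at least 3 of the 5 NK genes Ncr1, Klrb1c, Klrd1, Nkg7 and Gzma, and 0 UMIs of the T cell genes Cd3e, Cd3d and Cd3g and of the B cell gene Cd79a. A UMI is a unique molecule count. The rule found 77 members among the 3368 kept barcodes of the 1-month libraries, and the whole series held 6555 kept barcodes. There were 22 members in the Vldlr-/- library, from mice lacking the very low density lipoprotein receptor, and 55 in the wild-type (WT) library. Each genotype was sampled at 1 month and again at 2 months, and each combination gave 1 library. Strain, sex and the number of animals pooled were not given in the sources used here. With 1 library per group, no difference between genotypes has a replicate check, no test was possible, and every interval below is a 95% exact interval that covers counting error only.

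NK cells are innate lymphocytes that kill virus-infected, stressed or transformed cells without a rearranged antigen receptor. They read activating receptors that sense stress or viral ligands against inhibitory receptors that sense MHC class I on the target. Killing uses granules loaded with perforin, which opens the target membrane, and granzymes, proteases that enter through it. NK cells also secrete interferon gamma and the chemokines Ccl3, Ccl4, Ccl5 and Xcl1, which draw in and activate other immune cells. The choroid is a vascular tissue, so blood and tissue NK cells cannot be told apart in a digested sample of it.

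The promoters of the genes that chose the members are shown because they define the population, and that of Prf1, the perforin gene, because killing depends on it. RefSeq on GRCm38.p6 gave 250 bases before to 50 after the transcription start for 4 of the 5 choosing genes and for Prf1. Each promoter is printed 5′ to 3′ on the gene's own strand. Capitals mark the RUNX core TGTGGT (or ACCACA on the other strand) and the T-box core GGTGTGA (or TCACACC), the letters bound by the Runx factors and by the T-box factors Eomes and Tbx21 of cytotoxic lymphocytes. No match of the first motif overlapped a match of the other in these sequences.
Ncr1 promoter, chr7:4337465-4337764, plus strand: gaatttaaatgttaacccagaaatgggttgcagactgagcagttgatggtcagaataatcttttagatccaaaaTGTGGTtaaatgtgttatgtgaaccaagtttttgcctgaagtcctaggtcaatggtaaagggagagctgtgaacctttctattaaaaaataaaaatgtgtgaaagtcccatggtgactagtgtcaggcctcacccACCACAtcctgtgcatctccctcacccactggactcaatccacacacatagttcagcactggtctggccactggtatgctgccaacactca
Klrb1c promoter, chr6:128788592-128788891, minus strand: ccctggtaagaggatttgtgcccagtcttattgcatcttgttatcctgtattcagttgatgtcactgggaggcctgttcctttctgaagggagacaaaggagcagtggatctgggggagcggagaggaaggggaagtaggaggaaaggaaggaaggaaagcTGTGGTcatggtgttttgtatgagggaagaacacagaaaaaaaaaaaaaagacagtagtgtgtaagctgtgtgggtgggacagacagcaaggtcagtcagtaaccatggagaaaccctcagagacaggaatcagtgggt
Nkg7 promoter, chr7:43436888-43437187, plus strand: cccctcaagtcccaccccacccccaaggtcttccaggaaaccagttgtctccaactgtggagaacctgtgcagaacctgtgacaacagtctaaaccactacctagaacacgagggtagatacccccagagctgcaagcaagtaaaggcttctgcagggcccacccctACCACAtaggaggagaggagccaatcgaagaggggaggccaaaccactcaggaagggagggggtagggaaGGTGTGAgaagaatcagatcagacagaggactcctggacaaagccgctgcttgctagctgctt
Gzma promoter, chr13:113100932-113101231, minus strand: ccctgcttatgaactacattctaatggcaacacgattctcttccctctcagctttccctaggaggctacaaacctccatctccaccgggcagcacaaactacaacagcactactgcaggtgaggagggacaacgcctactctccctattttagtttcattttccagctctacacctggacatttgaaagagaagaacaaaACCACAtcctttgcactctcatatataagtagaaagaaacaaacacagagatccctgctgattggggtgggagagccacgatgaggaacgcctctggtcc
Prf1 promoter, chr10:61297586-61297885, plus strand: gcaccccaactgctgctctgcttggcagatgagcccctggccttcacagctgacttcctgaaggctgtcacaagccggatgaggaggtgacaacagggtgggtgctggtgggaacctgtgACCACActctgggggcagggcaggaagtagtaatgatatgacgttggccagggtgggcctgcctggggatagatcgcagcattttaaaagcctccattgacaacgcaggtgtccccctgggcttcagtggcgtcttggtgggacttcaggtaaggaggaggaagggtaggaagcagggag

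The RUNX core stood in 4 of the 4 choosing promoters in the table and in that of Prf1, and in 16.8% of all 32851 promoters of the same length. The T-box core stood in 1 of the 4, that of Nkg7, and in 3.98% of all promoters. Among the 20 genes with the largest ratio of NK members to all other barcodes, 18 had a promoter in the table, and 6 of those held the RUNX core and 1 the T-box core. Of 18 promoters in the list of cytotoxic genes, 8 held the RUNX core and 3 the T-box core. A match describes the letters in the window and does not show binding.

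The libraries held 12022513 UMIs (Vldlr-/-, 1 month), 11194301 (WT, 1 month), 16292472 (Vldlr-/-, 2 months) and 23070271 (WT, 2 months), and 0 barcode sequences were shared between the 1-month libraries. Median depth per NK member was 8003 UMIs (lowest 3849, highest 15942) in Vldlr-/- and 7229 UMIs (lowest 3442, highest 19965) in WT, with medians of 2599 and 2445 genes and of 2.60% and 2.24% mitochondrial UMIs. The summed members held 181447 UMIs in Vldlr-/- and 418237 in WT. Vldlr (chromosome 19, 27216484 to 27254231, GRCm38) was at 0 UMIs in the NK members of every library, so the targeted gene gives no check within them. The gene's counts elsewhere did not all follow the labels. Over all kept barcodes at 1 month Vldlr had 418 UMIs in the library labelled Vldlr-/- and 260 UMIs in the library labelled WT, the direction opposite to the labels. In barcodes with both Rpe65 and Rgr, genes of the RPE, it had 5 UMIs (10.2 CPM, UMIs of a gene per 1000000 UMIs) in 165 barcodes of the library labelled Vldlr-/- and 81 UMIs (129 CPM) in 230 barcodes of the library labelled WT. At 2 months the counts over all kept barcodes were 509 and 3092 UMIs, and those in RPE barcodes 308 UMIs (32.7 CPM) and 2844 UMIs (172 CPM), with the library labelled Vldlr-/- lower in both. The sources do not say which part of the gene is deleted, and reads outside that part check nothing. Vldlr-/- and WT are therefore the labels of the libraries throughout, and every direction below rests on those labels.

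NK members were a smaller share of the library labelled Vldlr-/-, by an amount that depends on the rule. They made up 22 of 1819 kept barcodes, 1.21% (0.759 to 1.83), in the Vldlr-/- library, against 55 of 1549, 3.55% (2.69 to 4.60), in WT. Among the 5 lymphocyte classes defined in the same way, they were 5.33% of 413 barcodes (3.37 to 7.95) in Vldlr-/- and 10.9% of 505 (8.31 to 13.9) in WT. Barcodes with Cd3 UMIs and at least 3 of the NK genes, named T cells with NK genes, numbered 23 in Vldlr-/- and 75 in WT. Of these, 22 and 62 had 6 or more Cd3 UMIs. Only 1 to 3 Cd3 UMIs stood in 0 and 13 of them, and of the 13, 0 had Cd8a or Trac, so the name may not hold for those. CD8 T cells with fewer than 3 of the NK genes numbered 55 in Vldlr-/- and 63 in WT, CD4 T cells 49 and 70, and B cells 264 and 242. B cells, the most numerous class, were 14.5% (12.9 to 16.2) of kept barcodes in Vldlr-/- and 15.6% (13.8 to 17.5) in WT. Dissection, digestion and dead cell removal act on all these shares, and their part in the difference was not tested. When barcodes with any Trac, Trbc1, Trbc2 or Cd79b UMI were also left out, 8 members stayed in each library, 0.440% of kept barcodes in Vldlr-/- and 0.516% in WT, a narrower gap. At 2 months the rule found 3 of 1140 kept barcodes (0.263%) in Vldlr-/- and 4 of 2047 (0.195%) in WT, too few to describe.

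**Figure D1:**
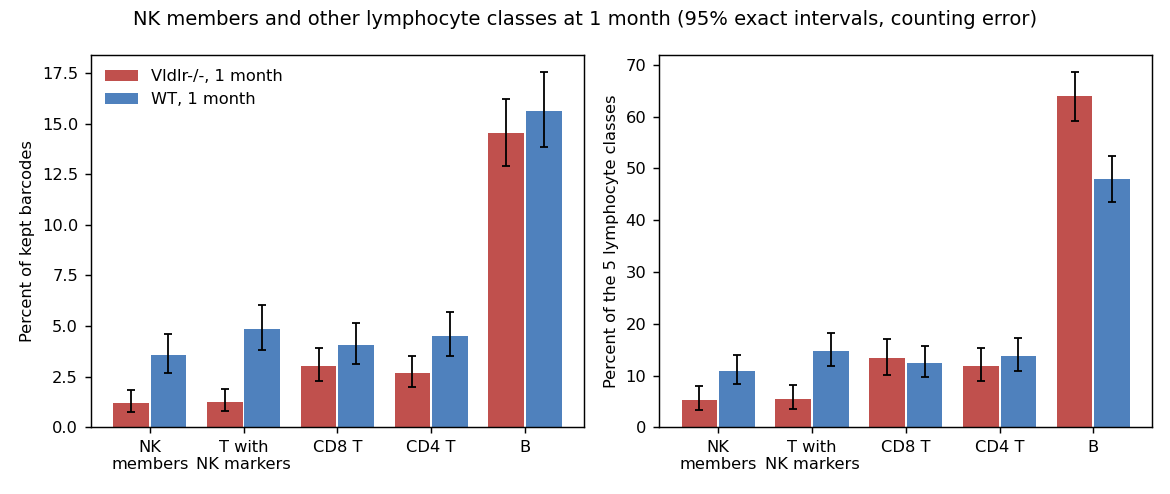
Percent of kept barcodes (left) and percent of the 5 lymphocyte classes (right) for NK members and 4 other classes at 1 month. Bars are single libraries, Vldlr-/- in red and WT in blue, with 95% exact intervals for counting error. NK members, T cells with NK genes and CD4 T cells had the lower bar in Vldlr-/- on both axes, while B cells were close on the left and higher in Vldlr-/- on the right. The T cells with NK genes include 13 WT barcodes and 0 Vldlr-/- barcodes with only 1 to 3 Cd3 UMIs.

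The values that chose the members left few borderline cases. All 5 NK genes were detected in 20 of the 22 Vldlr-/- members and in 54 of the 55 WT members. Exactly 4 were detected in 2 Vldlr-/- members, both lacking Gzma, and in 1 WT member, which lacked Ncr1. No kept barcode without the excluded genes had exactly 3, so the members just inside the limit had 4. Just outside it, 6 Vldlr-/- and 13 WT barcodes had exactly 2. On the side of the excluded genes, 13 WT barcodes and 0 Vldlr-/- barcodes had at least 3 NK genes with 1 to 3 Cd3 UMIs. Of those 13, all 13 had Tyrobp and Fcer1g UMIs, 11 had all 5 NK genes, and 0 had Cd8a or Trac. Barcodes with 6 or more Cd3 UMIs numbered 22 in Vldlr-/- and 62 in WT, of which 22 and 60 had Trac. With up to 3 Cd3 UMIs allowed, an alternative chosen after the data were seen, the WT members were 68 (4.39%) and the Vldlr-/- members stayed at 22.

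The label fitted the markers that the rule did not use. The summed members held Gzma at 12891 CPM in Vldlr-/- and 14047 CPM in WT, Nkg7 at 3759 and 4354, Klrd1 at 1405 and 1435, Klrb1c at 931 and 885, and Ncr1 at 827 and 987 CPM. Those 5 levels are a description, since they chose the members. Per member, Gzma, a granule protease, ran from 0 over a median of 12978 to 29951 CPM in Vldlr-/- and from 153 over 15309 to 32565 CPM in WT, so the libraries overlapped. Tyrobp, the adaptor that couples several activating receptors to Syk-family kinases, ran from 1647 over 3396 to 6147 CPM in Vldlr-/- and from 952 over 3448 to 8817 CPM in WT. Every member of both libraries held Tyrobp, Fcer1g and Il2rb UMIs. B cells of the same libraries, which should lack Il2rb, the receptor chain for interleukins 2 and 15, held it in 0 of 264 Vldlr-/- barcodes (an upper limit of 1.39%) and 2 of 242 WT barcodes (0.826%), at median depths of 6182 and 6265 UMIs.

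Genes that define other lymphocytes and macrophages were absent or low in the members. Cd4, Cd8a, Cd8b1, Cd6, Themis and Camk4 of T cells, Ms4a1 and Pax5 of B cells, and C1qa, Csf1r and Adgre1 of macrophages were at 0 UMIs in both libraries. Other genes of those lists were present. The 15 B cell genes not used by the rule summed to 265 CPM in 18 Vldlr-/- members and 218 CPM in 40 WT members, against 10770 and 11952 CPM in the other barcodes. Most of the members with such UMIs held Ighm, the heavy chain of IgM, in 10 of 22 Vldlr-/- and 23 of 55 WT members. The 16 myeloid genes summed to 254 CPM in 18 Vldlr-/- members and 234 CPM in 45 WT members, against 6347 and 7352 CPM in the other barcodes, with Cst3 in 17 and 41 members, Lyz2 in 4 and 10, and C1qb in 1 and 1. Trac, the constant segment of the T cell receptor alpha chain, had 0 UMIs in Vldlr-/- and 5 in 4 WT members. Trdc, the constant segment of the delta chain of gamma-delta T cells, was found in 10 of 22 Vldlr-/- and 22 of 55 WT members. B cells held Trdc in 0 of 264 and 0 of 242 barcodes. The listed gamma chain genes were not among the counted genes. Trbc1 was present, with 56 UMIs in 14 of 22 Vldlr-/- members and 142 in 40 of 55 WT members (309 and 339.5 CPM), against 2.40 and 1.93 CPM in B cells. Trbc2 had 9 UMIs in 3 Vldlr-/- members and 93 in 20 WT members (49.6 and 222 CPM, log2 ratio -2.13, -3.34 to -1.18). CD8 T cells held Trbc2 at 1935 CPM in Vldlr-/- and 1978 CPM in WT. NK cells can carry unrearranged transcripts of these segments, and the part that stray T cells had in the values was not tested. Rod photoreceptor genes, which NK cells should lack, summed to 524 CPM in Vldlr-/- members and 256 CPM in WT members, and to 18011 and 5113 CPM in the other barcodes. Rod genes reached 22 of 22 Vldlr-/- members (from 125 over 455 to 1484 CPM) and 48 of 55 WT members (from 0 over 224 to 1919 CPM). Red blood cell genes summed to 413 CPM in Vldlr-/- and 241 CPM in WT, and RPE genes to 71.6 and 143 CPM.

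Against all other barcodes, 13 of the 20 genes furthest above were Klr receptor genes. The 20, ranked by the smaller ratio of the libraries, began with Serpinb9b, a serpin gene (187 CPM in Vldlr-/- members and 129 CPM in WT members, against 0.378 and 0.803 CPM in the other barcodes). Next came Klra3, Klra8, Klra7, Klrb1a, Klra4, Klri2, Klrc2, Styk1 and Prf1, then Klrb1b, Eomes, Itga2, Klre1, Klra9, Klrb1f, Samd3, Klrk1, Serpinb6b and Klrc1. Eomes, the T-box factor that sets conventional NK cells apart from ILC1 (type 1 innate lymphoid cells, their tissue-resident relatives), stood at 204 CPM in Vldlr-/- members and 265 CPM in WT members, against 4.64 and 7.83 CPM in the other barcodes. Itga2, the integrin CD49b used to stain NK cells, stood at 187 and 218 CPM, against 5.20 and 7.02 CPM. The rule chose barcodes by NK genes, so these differences are descriptions and carry no test.

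NK members were also set against CD8 T cells, another lymphocyte class that can kill. That class holds only T cells with fewer than 3 of the NK genes, and the T cells with NK genes were not part of it. Of 3123 genes with at least 30 UMIs over NK members and CD8 T cells in each library, 245 stood higher in NK members by 2-fold or more in both libraries and 162 stood lower by that much. The genes furthest above were Klra4, Cma1, Klra8, Fcer1g, Tyrobp, Klri2, Klra7, Klrb1a, Klrb1b and Styk1. Fcer1g, the signalling chain of Fc receptors, stood at 2723 CPM in NK members and 3.35 CPM in CD8 T cells of Vldlr-/-, and at 2912 and 9.20 CPM in WT. Cma1, a chymase gene also used by mast cells, stood at 485 CPM in NK members of Vldlr-/- and 416 CPM in those of WT and had 0 UMIs in the CD8 T cells of both. The mast cell genes Mcpt4, Cpa3 and the others of their list had 0 UMIs in Vldlr-/- members and 1 in WT members. Furthest below were Cd8b1 and Cd8a, which the class rule used, and Dapl1, Rgs10, Cd6, Ccr7, Gm12840, Gm8369, Slfn1 and Tdrp. Ccr7, the receptor that leads naive T cells into lymph nodes, had 0 and 1 UMIs in NK members of Vldlr-/- and WT and stood at 256 and 310.1 CPM in CD8 T cells.

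**Figure D2:**
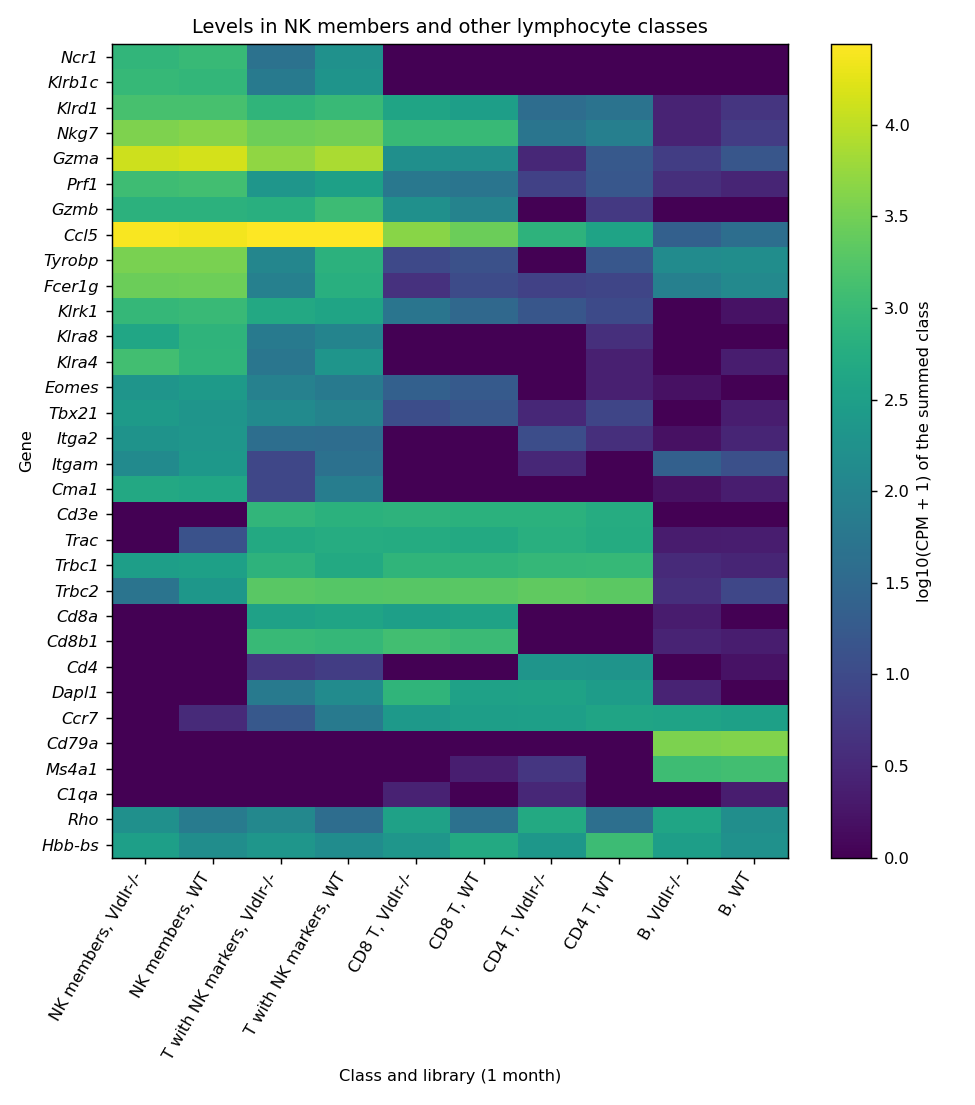
Levels of 32 genes in the summed barcodes of NK members and 4 other lymphocyte classes, as log10(CPM + 1), with the Vldlr-/- library left of the WT library in each pair. Rows run from the genes that chose the NK members over receptors and transcription factors to genes of T cells, B cells, macrophages, rods and red blood cells. Tyrobp and Fcer1g are near 3000 CPM in NK members and near 10 CPM or lower in CD8 T cells, while Cd8b1 and Cd79a are at 0 in NK members.

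Most genes had similar levels in NK members of the 2 genotypes. Of 2961 genes with at least 30 UMIs over both sums, 42 (1.42%) were higher in Vldlr-/- by 2-fold or more and 117 (3.95%) were lower by that much, 159 in all (5.37%). The log2 ratio of Vldlr-/- to WT was taken from CPM after adding 0.5 counts. Its median over the 2961 genes was -0.05, with 1327 above 0 and 1634 below. The Vldlr-/- sum held 0.434 of the UMIs of the WT sum. A gene with 30 UMIs in all would thus have 9.08 of them in Vldlr-/- at equal rates, and ratios of such genes are loose. With at least 100 UMIs required, 4 of 824 genes were higher by 2-fold or more and 4 were lower, so the excess of lower genes was absent there. Of the 42 higher genes 37, and of the 117 lower genes 101, stood in NK members at or above the level of the other barcodes in the library where they were higher. The rule for naming single genes was applied to those.

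Activating receptors and their adaptors had near-equal levels. Of 23 listed genes 18 were measured, with 6 above and 12 below 0, none past 2-fold, and a median log2 ratio of -0.10 beside -0.05 over all genes. Klrk1, the NKG2D receptor for stress ligands, stood at 893 CPM in Vldlr-/- and 1023 CPM in WT, a log2 ratio of -0.20 (-0.47 to 0.07). Its UMIs were found in 22 of 22 Vldlr-/- members and in 54 of 55 WT members. Hcst, the adaptor of Klrk1, stood at 794 CPM in Vldlr-/- and 918 CPM in WT (-0.21, -0.50 to 0.07). Tyrobp (3489 and 3548 CPM, -0.02) and Fcer1g (2723 and 2912 CPM, -0.10) differed less. Klrc2, the activating partner of Klrd1, stood at 347 CPM in Vldlr-/- and 493 CPM in WT (-0.50, -0.94 to -0.09). Sh2d1a, the adaptor of the SLAM receptors, was on the other side, with 254 CPM in Vldlr-/- and 165 CPM in WT (0.61, 0.05 to 1.18), as was the SLAM-family receptor Cd244a with 226 and 136 CPM (0.72, 0.11 to 1.33).

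Inhibitory receptors went both ways. Of 18 listed genes 9 were measured, with 5 above and 4 below 0 and a median of 0.03. The list also holds Klra4, whose product Ly49D is an activating receptor. Past 2-fold was 1 gene, Klra1, described with its family below. Klre1, a lectin-like receptor, stood at 1146 CPM in Vldlr-/- and 1320 CPM in WT (-0.20, -0.44 to 0.03). Klrc1, the inhibitory partner of Klrd1 that reads the MHC molecule Qa-1, stood at 319.6 and 426 CPM (-0.41, -0.87 to 0.02). However, 32.6% of the 90-base windows at its 3′ end also occur in Klrc2, so the count of Klrc1 is uncertain. Of the windows at the 3′ end of Klrc2, 0% occur in another gene. Klrg1, a cadherin receptor of mature cells, stood at 287 CPM in Vldlr-/- and 160 CPM in WT (0.83, 0.29 to 1.38), with UMIs in 13 of 22 and 31 of 55 members. MHC class I genes in the members themselves had 3 of 13 measured genes above and 10 below 0 (median -0.28). H2-K1 stood at 2491 CPM in Vldlr-/- and 2915 CPM in WT (-0.23, -0.39 to -0.07), and B2m, the light chain of MHC class I, at 2442 and 2231 CPM (0.13, -0.04 to 0.29).

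The Ly49 receptors, encoded by the Klra genes on mouse chromosome 6, are switched on clone by clone, so each NK cell carries its own small set. Klra1, Klra3, Klra7 and Klra9 encode the inhibitory receptors Ly49A, Ly49C, Ly49G and Ly49I, and Klra4 and Klra8 the activating receptors Ly49D and Ly49H, the last of which recognises a protein of mouse cytomegalovirus. Members held UMIs of a median of 2 of these 6 genes in Vldlr-/- and 3 in WT, with a range of 0 to 5 in both. The share with 0 of the 6 was 3 of 22 in Vldlr-/- and 4 of 55 in WT. Klra8 was detected in 10 of 22 Vldlr-/- members, 45.5% (24.4 to 67.8), and in 32 of 55 WT members, 58.2% (44.1 to 71.3). Its level was 429.9 CPM in Vldlr-/- and 758 CPM in WT (-0.82, -1.19 to -0.46). Klra4 was detected in 8 of 22 Vldlr-/- members, 36.4% (17.2 to 59.3), and in 22 of 55 WT members, 40.0% (27.0 to 54.1), and its level was 1262 CPM in Vldlr-/- and 815 CPM in WT (0.63, 0.38 to 0.88). Of the 229 Klra4 UMIs in Vldlr-/-, 32.3% were in 1 member, and without the top member of each library the ratio was 0.34. It turned to -0.36 when barcodes with Trac, Trbc1, Trbc2 or Cd79b UMIs were left out. After thinning every member to 1000 UMIs, Klra8 was detected in 18.2% of Vldlr-/- and 36.4% of WT members, and Klra4 in 31.8% and 32.7%. In B cells Klra8 had UMIs in 0 of 264 and 0 of 242 barcodes, and Klra4 in 0 of 264 and 2 of 242.

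Klra1 (chromosome 6, 130363917 to 130386874, minus strand) had 6 UMIs in 1 of 22 Vldlr-/- members and 85 UMIs in 9 of 55 WT members, a log2 ratio of -2.56 (-4.11 to -1.44). The shares of members were 4.55% (0.115 to 22.8) in Vldlr-/- and 16.4% (7.77 to 28.8) in WT, and these intervals overlap. With at least 3 UMIs required, Klra1 was counted in 1 Vldlr-/- member and 8 WT members. At that level Klra8 was counted in 5 of 22 Vldlr-/- and 25 of 55 WT members, Klra3 in 6 and 20, Klra7 in 9 and 25, Klra9 in 9 and 22, and Klra4 in 8 and 22. The level of Klra7 was 606 CPM in Vldlr-/- and 595 CPM in WT (0.03), that of Klra9 was 650.3 and 619 CPM (0.07), and that of Klra3 was 375 and 423 CPM (-0.17). Of the 90-base windows at their 3′ ends, Klra9, Klra7 and Klra3 shared 14.1%, 10.2% and 8.52% with other genes, and Klra1, Klra4 and Klra8 shared 0%. The Klra1 levels come from few members, while Klra7 was detected in 14 of 22 Vldlr-/- and 32 of 55 WT members. For the other Ly49 genes the top Vldlr-/- member held from 24.6% (Klra9) to 33.3% (Klra8) of the UMIs.

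**Figure D3:**
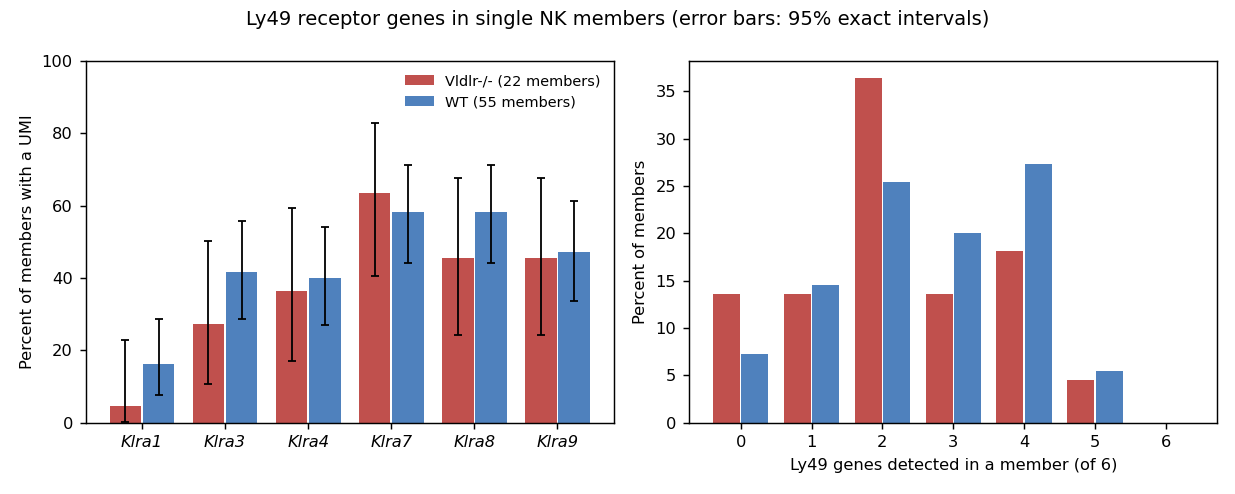
Left, percent of NK members with at least 1 UMI of each of 6 Ly49 genes, with 95% exact intervals, Vldlr-/- in red (22 members) and WT in blue (55 members). Right, percent of members by the number of the 6 genes detected. The intervals of the 2 libraries overlap for each of the 6 genes. The most common number was 2 in Vldlr-/- (8 members) and 4 in WT (15 members, with 14 members at 2).

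The cytotoxic granule was much the same in both genotypes. Of 20 listed genes 12 were measured, with 6 above and 6 below 0, none past 2-fold, and a median of 0.03. Prf1 stood at 1146 CPM in Vldlr-/- and 1238 CPM in WT (-0.11, -0.35 to 0.12), with UMIs in 22 of 22 and 54 of 55 members. Per member it ran from 381 over a median of 1006 to 2591 CPM in Vldlr-/- and from 0 over 1211 to 3740 CPM in WT, with full overlap. Gzmb, granzyme B, stood at 722 CPM in Vldlr-/- and 724 CPM in WT (-0.00, -0.31 to 0.30), with UMIs in 19 of 22 and 48 of 55 members. Srgn, the proteoglycan that packs the granule, stood at 584 and 586 CPM (-0.00). Fasl, a death ligand, stood at 242 and 222 CPM (0.12, -0.43 to 0.66). Serpinb6b, a serpin, was at 479 CPM in Vldlr-/- and 344 CPM in WT (0.48, 0.08 to 0.87). Cst7, cystatin F, which restrains the cathepsins that activate granzymes, was at 138 and 227 CPM (-0.71, -1.42 to -0.07).

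Among cytokine and chemokine genes, 3 stood lower in Vldlr-/- by 2-fold or more, Ifng, Ccl3 and Ccl4, of 7 measured and 16 listed, beside 3.95% over all genes. Of the 7, 3 were above and 4 below 0. Their median, -0.77 beside -0.05 over all genes, is the value of Xcl1, which changes sign with the rule (below). The summed list, most of it Ccl5, had a log2 ratio of 0.06 (0.01 to 0.11). Ifng, interferon gamma (chromosome 10, 118441046 to 118445892), had 15 UMIs in Vldlr-/- and 81 in WT, or 82.7 and 194 CPM, a log2 ratio of -1.21 (-2.13 to -0.42). It was detected in 6 of 22 Vldlr-/- members, 27.3% (10.7 to 50.2), and in 31 of 55 WT members, 56.4% (42.3 to 69.7). After thinning, the shares were 4.55% in Vldlr-/- and 20% in WT, and B cells held Ifng UMIs in 0 of 264 and 2 of 242 barcodes. Members without Ifng UMIs were found in both libraries, and the highest member had 627 CPM in Vldlr-/- and 1203 CPM in WT.

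Ccl4, a chemokine that draws in other immune cells, had 78 UMIs in Vldlr-/- and 437 in WT, or 429.9 and 1045 CPM (-1.28, -1.65 to -0.93). It was detected in 15 of 22 Vldlr-/- members, 68.2% (45.1 to 86.1), and 38 of 55 WT members, 69.1% (55.2 to 80.9). After thinning, the shares were 27.3% in Vldlr-/- and 41.8% in WT. The highest member was at 2399 CPM in Vldlr-/- and 6882 CPM in WT, and the medians were 176 and 442 CPM. Ccl3, its neighbour on chromosome 11 with a like function, had 23 UMIs in Vldlr-/- and 122 in WT, or 127 and 292 CPM (-1.19, -1.91 to -0.55), in 10 of 22 and 36 of 55 members. Ccl5, the most abundant gene of this list, stood at 24949 CPM in Vldlr-/- and 23061 CPM in WT (0.11, 0.06 to 0.16), and every member held it. Xcl1, the ligand of cross-presenting dendritic cells, had 21 UMIs in 5 Vldlr-/- members and 83 in 15 WT members (-0.77, -1.54 to -0.07), but 13 of the 21 were in 1 Vldlr-/- member. Without the members that held Mki67 or Cxcr6 UMIs or at least 5 Il7r UMIs, an alternative chosen after the data were seen, the ratio of Xcl1 was -2.02. With barcodes holding any Trac, Trbc1, Trbc2 or Cd79b UMI left out, which kept 8 members in each library, the ratio of Ccl4 was -0.10 and that of Xcl1 2.84. The ratio of Ifng lay between -1.98 and -1.03 over the 14 alternatives.

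At least 2 of the 4 genes Ifng, Ccl3, Ccl4 and Xcl1 were found in 12 of 22 Vldlr-/- members, 54.5% (32.2 to 75.6), and in 42 of 55 WT members, 76.4% (63.0 to 86.8), and 2 and 4 members had none of them. Outside NK members, barcodes with Cd3 UMIs and at least 3 NK genes held Ccl4 at 321 CPM in Vldlr-/- and 1007 CPM in WT, and Ifng at 215 and 117 CPM. In WT that class includes 13 barcodes with 1 to 3 Cd3 UMIs and 0 with Cd8a or Trac, and Vldlr-/- had 0 such barcodes. With those barcodes counted as NK members, the Ccl4 ratio of the members was -1.94. The class is therefore no separate view of T cells. Immediate early genes, which report recent stimulation and also tissue dissociation, had 6 of 17 measured genes above and 11 below 0, none past 2-fold (median -0.09). Fos stood at 165 CPM in Vldlr-/- and 165 CPM in WT (0.00, -0.67 to 0.64), Junb at 2182 and 2463 CPM (-0.17, -0.35 to -0.01), and Ier2 at 540.1 and 703 CPM (-0.38, -0.73 to -0.05).

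**Figure D4:**
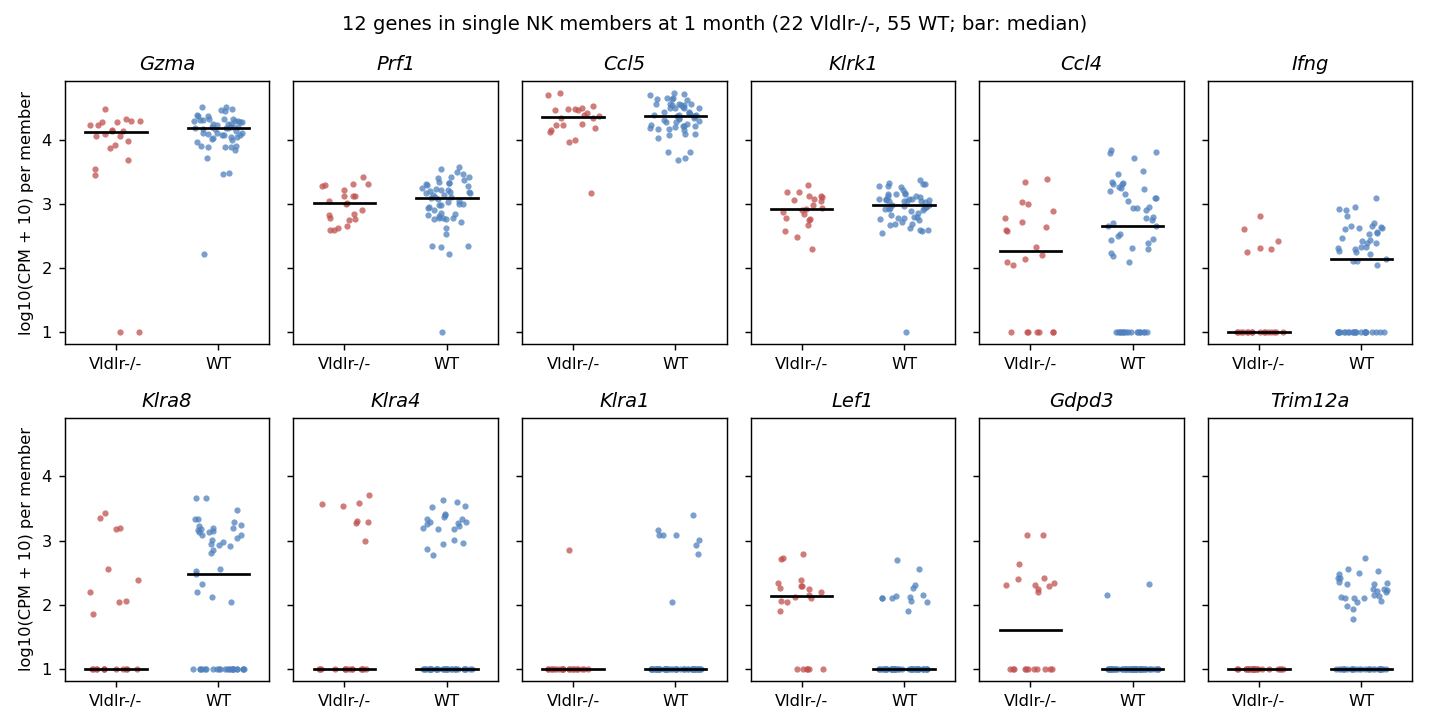
Level of 12 genes in every NK member at 1 month, as log10(CPM + 10), with 22 Vldlr-/- members in red and 55 WT members in blue and a bar at the median; points at 1 had no UMI. Ccl5 has UMIs in every member, and Gzma, Prf1 and Klrk1 in all but 2 Vldlr-/- members (Gzma) and 1 WT member each (Prf1, Klrk1). Klra8, Klra4 and Klra1 have members with and without UMIs, and a member without a UMI may still express the gene. Gdpd3 and Trim12a lean to opposite libraries, with UMIs in 11 of 22 against 2 of 55 and in 0 of 22 against 27 of 55 members.

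Cytokine receptors and their signalling genes were close to equal, with 8 of 16 measured genes above and 8 below 0 and a median of 0.01. Il2rb stood at 733 CPM in Vldlr-/- and 662 CPM in WT (0.15, -0.16 to 0.45) and Il2rg, the common gamma chain, at 242 and 366 CPM (-0.59, -1.11 to -0.10). The interleukin 18 receptor chains Il18r1 (319.6 and 289 CPM, 0.14) and Il18rap (391 and 371 CPM, 0.08), the interferon gamma receptor Ifngr1 (937 and 878 CPM, 0.09), the kinase Jak1 (931 and 964 CPM, -0.05) and Stat4, the transducer of interleukin 12 (319.6 and 289 CPM, 0.14), had intervals that include 0. Past 2-fold was 1 gene, Il7r, the interleukin 7 receptor, with 23 UMIs in Vldlr-/- and 7 in WT (2.80, 1.65 to 4.39). Of the 23 UMIs 21 were in 1 member, and without the deepest member of each library the ratio was -0.48, so this value rests on a single cell.

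Interferon response genes depended in part on 1 WT member. Of 30 listed genes 10 were measured, with 1 above and 9 below 0 and a median of -0.57, beside 1327 of 2961 above 0 and a median of -0.05 over all genes. That member, of 9901 UMIs, held 99 of the 583 UMIs of the list in WT, 9999 CPM against a WT median of 1126 CPM. Without it, an alternative chosen after the data were seen, 7 genes were measured, with 3 above and 4 below 0. None of those 7 was past 2-fold, and their median was -0.28. Isg15, a ubiquitin-like interferon-induced gene, was the 1 gene past 2-fold with all members, with 3 UMIs in Vldlr-/- and 32 in WT (-2.10, -4.56 to -0.53). The same member held 17 of those 32, and also 6 Ifit1, 8 Ifit3 and 6 Usp18 UMIs. Without that member Isg15 fell below the limit of 30 UMIs and so was not among the 7, but its ratio was still -1.08. Under the rule that also excludes Trac, Trbc1, Trbc2 and Cd79b the ratio of Isg15 was 0.051. Ifi203, a nuclear interferon-induced gene, stood at 198 CPM in Vldlr-/- and 299 CPM in WT (-0.59, -1.17 to -0.05), and its ratio was 0.51 under that rule. Irf1, a factor induced by interferon gamma, stood at 82.7 and 148 CPM (-0.83, -1.76 to -0.01). Ifi47, an interferon-induced GTPase, was the gene above 0, with 171 and 158 CPM (0.11, -0.55 to 0.75). Irf7 (55.1 and 62.2 CPM, -0.17) and Ifi209 (66.1 and 117 CPM, -0.81) had intervals that include 0.

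Lineage transcription factors were balanced, with 9 of 18 measured genes above and 9 below 0 and a median of 0.02. Eomes (204 CPM in Vldlr-/- and 265 CPM in WT, -0.38, -0.96 to 0.17) and Tbx21, its partner in NK maturation (265 and 203 CPM, 0.38, -0.16 to 0.91), had intervals that include 0. Id2, the inhibitor of E proteins needed for innate lymphocytes, stood at 1185 CPM in Vldlr-/- and 971 CPM in WT (0.29, 0.04 to 0.53), Ets1 at 579 and 562 CPM (0.04), Irf8 at 689 and 791 CPM (-0.20) and Klf2, which drives exit genes, at 1108 and 1152 CPM (-0.06). Past 2-fold were Lef1, higher, and Bach2, a repressor of effector genes, lower with 5 and 28 UMIs (-1.23, -3.01 to 0.11).

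Lef1 (chromosome 3, 131110471 to 131224356, plus strand), a factor of the Wnt pathway used by early lymphocytes, had 25 UMIs in Vldlr-/- and 17 in WT, or 138 and 40.6 CPM (1.72, 0.81 to 2.74). It was detected in 16 of 22 Vldlr-/- members, 72.7% (49.8 to 89.3), and in 13 of 55 WT members, 23.6% (13.2 to 37.0), with at most 4 UMIs in a Vldlr-/- member and 3 in a WT member. The difference was thus spread over many members. After thinning, the shares were 31.8% in Vldlr-/- and 3.64% in WT, and B cells held Lef1 UMIs in 7.95% of Vldlr-/- and 6.20% of WT barcodes. Over the 14 alternatives the log2 ratio of Lef1 ran between 1.61 and 2.29. In CD4 T cells Lef1 stood at 577 CPM in Vldlr-/- and 579 CPM in WT, and in CD8 T cells at 466 and 531 CPM. Tcf7, its relative, had 12 and 24 UMIs in the members (0.20, -0.93 to 1.26).

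Mature NK genes were balanced, while immature ones stood somewhat higher in Vldlr-/-. Of 12 mature NK genes, all measured, 5 were above and 7 below 0 (median -0.03), none past 2-fold. Itgam, the integrin CD11b gained on maturation, had 24 UMIs in 11 Vldlr-/- members and 98 in 41 WT members (132 and 234 CPM, -0.82, -1.53 to -0.17). After thinning, however, its share was 31.8% in Vldlr-/- and 25.5% in WT, and the ratio was 0.31. Cma1 (485 and 416 CPM, 0.22), Ly6c2 (353 and 258 CPM, 0.45), S1pr5 (110.2 and 146 CPM, -0.40) and Zeb2 (292 and 397 CPM, -0.44) had intervals that include 0. Of 13 immature NK genes 11 were measured, with 8 above and 3 below 0, a median of 0.38 and 1 past 2-fold, Il7r, whose UMIs were nearly all in 1 member. Their sum stood at 2656 CPM in Vldlr-/- and 2130 CPM in WT, a log2 ratio of 0.32 (0.16 to 0.48). Per member it ran from 330.5 over a median of 2531 to 6495 CPM in Vldlr-/- and from 0 over 1507 to 10540 CPM in WT, so the libraries overlapped. Ctla2a, a cathepsin inhibitor gene, stood at 733 CPM in Vldlr-/- and 540.4 CPM in WT (0.44, 0.12 to 0.76), Cd7 at 342 and 263 CPM (0.38, -0.10 to 0.84), Ccr2, a chemokine receptor, at 364 and 263 CPM (0.47, 0.00 to 0.92) and Cd27, lost on maturation, at 71.6 and 93.2 CPM (-0.37, -1.41 to 0.56). By UMIs of Cd27 and Itgam, 5 Vldlr-/- members held Cd27 alone, 4 both, 7 Itgam alone and 6 neither, against 7, 19, 22 and 7 WT members in that order. Members without a UMI may still express the gene at this depth.

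A few members stood apart from the conventional NK profile. Of the 2 Vldlr-/- members without Gzma, the first held 21 Il7r and 5 Itga1 UMIs and the other 11 Cxcr6, 13 Xcl1, 3 Inpp4b, 3 Tmem176b and 2 Itga1 UMIs. Both had 0 Eomes UMIs, which does not set them apart, since Eomes was found in only 16 of 22 Vldlr-/- and 37 of 55 WT members. The first had 0 Cxcr6, Xcl1, Inpp4b and Tmem176b UMIs and 1 Itga2 UMI. Itga1 and Cxcr6 mark ILC1 and tissue-resident lymphocytes, and Il7r many innate lymphoid cells. Itga1, the integrin CD49a, had 10 UMIs in 4 Vldlr-/- members and 0 in WT, which allows a share of up to 6.49% of WT members with a UMI by the exact interval. Cxcr6 had 11 UMIs in 1 Vldlr-/- member and 0 in WT. Of 15 genes on the ILC1 list 3 were measured, all above 0 (median 0.71), and Il7r is 1 of those 3. The ILC2 and ILC3 genes Il1rl1 and Il23r were at 0 UMIs in both libraries, but other genes of those cells were present. The 14 listed ILC2 and ILC3 genes held 26 UMIs in 15 Vldlr-/- members and 71 UMIs in 34 WT members. Gata3, a factor of ILC2 and ILC3, had UMIs in 10 Vldlr-/- and 23 WT members. On the WT side 1 member, the deepest with 19965 UMIs, held 8 Mki67, 21 Birc5, 13 Ccnb2 and 151 Hmgb2 UMIs, genes of dividing cells, and no other member held Mki67. The cell cycle gene Hmgb2 stood at 441 CPM in Vldlr-/- and 877 CPM in WT (-0.99, -1.36 to -0.64), and at a log2 ratio of -0.24 without the deepest member of each library. It turned to 0.86 when barcodes with Trac, Trbc1, Trbc2 or Cd79b UMIs were left out.

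Trafficking genes had 9 of 21 measured genes above and 12 below 0 (median -0.06). S1pr1, the sphingosine 1-phosphate receptor that leads lymphocytes out of tissue, had 21 UMIs in 8 Vldlr-/- members and 10 in 6 WT members (116 and 23.9 CPM, 2.20, 1.13 to 3.53). Of the 21, 10 were in 1 member. B cells held S1pr1 in 55.3% of Vldlr-/- and 67.8% of WT barcodes, shares above those of the NK members, 36.4% and 10.9%. Cxcr4, a bone marrow homing receptor, stood at 204 CPM in Vldlr-/- and 110.0 CPM in WT (0.88, 0.23 to 1.55). The integrin chain Itgal (380 and 378 CPM, 0.01), Selplg (672 and 693 CPM, -0.04) and Itga4 (628 and 712 CPM, -0.18) had intervals that include 0. Itgb2, the shared chain of the leukocyte integrins, stood at 568 and 732 CPM (-0.37, -0.70 to -0.04).

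The gene with the largest ratio in favour of Vldlr-/- was Gdpd3, a lysophospholipase D (chromosome 7, 126766334 to 126775649, plus strand). It had 36 UMIs in Vldlr-/- and 2 in WT, or 198 and 4.78 CPM, a log2 ratio of 4.96 (3.42 to 8.47), and was found in 11 of 22 Vldlr-/- members and 2 of 55 WT members. The difference was not particular to NK members. B cells held Gdpd3 at 169 CPM in Vldlr-/- and 2.58 CPM in WT, CD8 T cells at 229 and 0 CPM, CD4 T cells at 207 and 0 CPM, and all kept barcodes at 124 and 11.1 CPM. At 2 months all kept barcodes held it at 21.5 CPM in Vldlr-/- and 2.11 CPM in WT.

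The gene with the largest ratio the other way was Trim12a, a tripartite-motif gene of the mouse Trim5-related family (chromosome 7, 104299894 to 104315466, minus strand). It had 0 UMIs in Vldlr-/- and 40 in WT, at least 5.78-fold lower against a limit of 3 counts over the group. The exact interval of its log2 ratio ended at -2.17, a smaller difference than that limit gives. It was found in 0 of 22 Vldlr-/- members (0 to 15.4%) and 27 of 55 WT members, 49.1% (35.4 to 62.9). It too differed in every class. B cells held 1.80 CPM in Vldlr-/- and 146 CPM in WT, CD8 T cells 1.68 and 130.1 CPM, and all kept barcodes 1.30 and 81 CPM. At 2 months the levels over all kept barcodes were 0.334 CPM in Vldlr-/- and 14.2 CPM in WT.

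The other genes named by size had fewer counts. Higher in Vldlr-/- were the lincRNA Gm26917 (42 and 27 UMIs, 1.82, of which 19 were in 1 member), Zbtb38, a methyl-DNA binding zinc finger gene (26 and 19 UMIs, 1.62), Gm26532 (19 and 14, 1.60), Pik3cg, a PI3-kinase catalytic subunit (20 and 16, 1.49), the splicing factor gene Srsf1 (24 and 21, 1.37) and Tespa1, which acts in T cell receptor signalling (26 and 23, 1.36). Zbtb38 was found in 15 of 22 Vldlr-/- and 12 of 55 WT members, and Srsf1 in 16 of 22 and 16 of 55. Those of Zbtb38 thinned to 13.6% and 3.64%, and those of Srsf1 to 9.09% and 3.64%. Lower were Gm43305, a processed transcript (1 UMI in Vldlr-/- and 36 in WT, -3.61), Dab2ip, a Ras GTPase-activating adaptor (2 and 30, -2.53), Mphosph10 and Esf1 of ribosomal RNA processing (2 and 29, -2.48, and 3 and 30, -2.01), Plekha5 (3 and 31, -2.06), Napg of membrane fusion (3 and 30, -2.01), Acsl4, an acyl-CoA synthetase for arachidonate (3 and 29, -1.96), and Cers2, a ceramide synthase (5 and 46, -1.93). The 8 lower genes reached 30 UMIs almost wholly through WT, so the limit itself favours a low ratio. Plekha5 was found in 3 of 22 Vldlr-/- and 25 of 55 WT members, and Cers2 in 4 of 22 and 31 of 55.

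**Figure D5:**
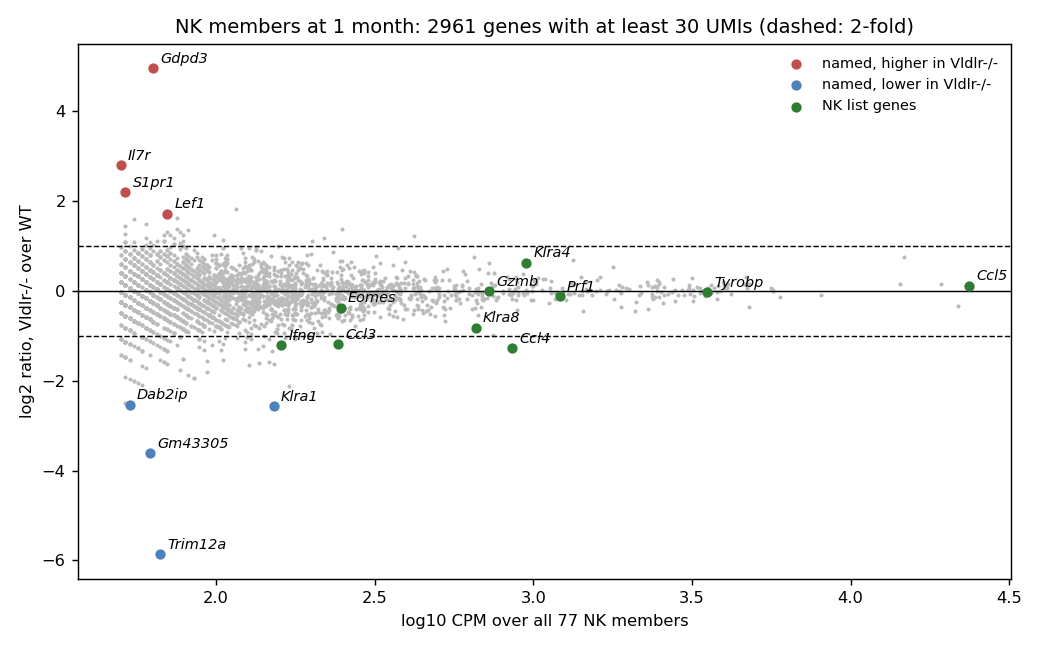
Log2 ratio of Vldlr-/- to WT against log10 CPM over all 77 NK members, for 2961 genes with at least 30 UMIs, with dashed lines at 2-fold. Red and blue mark named genes higher and lower in Vldlr-/-, green marks genes of the NK lists. The points fan out at low CPM, where most of the 159 genes past 2-fold lie, while Ccl4, Ccl3 and Ifng are past 2-fold at higher levels and Ccl5, Tyrobp, Prf1 and Gzmb sit near 0.

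The study's title concerns mitochondrial energetics, so the respiratory chain was read in the members too. Of 48 nuclear OXPHOS genes, all measured, 14 were above and 34 below 0, with a median of -0.15. Over all genes 44.8% were above 0, and the median was -0.05. Past 2-fold was 1 of the 48, beside 5.37% of all genes. It was Ndufc1, a complex I subunit, with 8 UMIs in 7 Vldlr-/- members and 55 in 29 WT members (-1.54, -2.86 to -0.50). Cox8a of complex IV stood at 981 CPM in Vldlr-/- and 1176 CPM in WT (-0.26, -0.52 to -0.01), Cox5b at 397 and 576 CPM (-0.54, -0.94 to -0.15), and Cox4i1 at 1003 and 822 CPM (0.29, 0.02 to 0.55). Atp5e of the ATP synthase stood at 898 and 954 CPM (-0.09), and Cox7c at 810.1 and 856 CPM (-0.08). Of 12 measured genes of the mitochondrial DNA 7 were above and 5 below 0 (median 0.05). Among them mt-Co1 stood at 5374 CPM in Vldlr-/- and 4366 CPM in WT (0.30, 0.19 to 0.41) and mt-Co3 at 5142 and 4528 CPM (0.18, 0.07 to 0.30). Glycolysis genes had 5 of 11 measured genes above and 6 below 0 (median -0.00), with Ldha, lactate dehydrogenase, at 358 and 227 CPM (0.65, 0.18 to 1.13). Heat shock genes had 3 of 7 above and 4 below 0 (median -0.01).

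Lipoprotein receptor and cholesterol genes were sparse in the members, while some genes of the growth factor, complement and fibrosis list were abundant. Of 20 lipoprotein receptor and cholesterol genes 2 were measured, both below 0, and the summed list stood at 397 CPM in Vldlr-/- and 528 CPM in WT. Of 16 growth factor, complement and fibrosis genes 5 were measured, 4 above and 1 below 0 (median 0.03), none past 2-fold. That list summed to 3395 CPM in Vldlr-/- members and 3603 CPM in WT members, against 1661.5 and 1609.6 CPM in the other barcodes. Lgals1, galectin 1, stood at 2216 CPM in Vldlr-/- and 2444 CPM in WT (-0.14, -0.31 to 0.03), Anxa2 at 722 and 719.7 CPM (0.00, -0.30 to 0.31), and Tgfb1, the transforming growth factor beta 1 gene, at 143 and 119 CPM (0.26, -0.48 to 0.97). Vegfa, the angiogenic factor, had 3 UMIs in 1 Vldlr-/- member and 14 UMIs in 11 WT members, and Pdgfb had 18 UMIs in 8 and 34 in 22 members (0.28, -0.62 to 1.15).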

How the data were processed

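Single-cell RNA sequencing (10x Genomics) was made from posterior eye tissue of Vldlr-/- and WT mice, 1 library per genotype and age. The deposited values are raw UMI counts per gene and barcode, whole numbers with no normalization, written by Cell Ranger 6.0.2 (1 month) and 7.0.1 (2 months), per the file headers. Other versions, Cell Ranger 3.0 with mm9, and Seurat 4.0 stand in the submitters' processing notes, so the build used for counting is uncertain. Gene identifiers in the deposited feature tables were used as given, and 32158 of 32285 matched GENCODE M21 on GRCm38, which gave the printed coordinates.

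UMIs of the members were summed per library and scaled to CPM, and the log2 ratio used 0.5 added counts and at least 30 UMIs over both sums. The genes that chose the members were left out of that comparison. Shares carry exact Clopper-Pearson intervals, sums exact Poisson intervals and ratios exact conditional intervals. All 95% intervals and the limit of 3 counts cover counting error only. With 1 library per group no count model was run and no p-value was computed. For shares of members with a UMI, each barcode was also thinned to 1000 UMIs (1 B cell was shallower). Scrublet scores (scanpy 1.11.5) removed no barcode in the main analysis, and an alternative removed the top 5%. The calculations used scipy 1.17.1 and numpy 2.4.6 with pandas 2.3.3 under Python 3.11.15, figures matplotlib 3.10.9, and the calculation was tested on simulated counts.

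The members and the 32 gene lists were chosen with earlier results of these data known. Genes are named as list members (highest summed UMIs first, and those past 2-fold), as the 10 largest ratios per direction with NK levels at or above those of the other barcodes, as the 20 largest over other barcodes and the 10 per direction against CD8 T cells, and as checks. Other genes and single members named with values were chosen after their values were seen. Of the list genes, 4 were not in the files. The 90-base windows were taken from the last 500 bases of the longest coding transcript.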

Additional observations from a re-analysis of the deposited data

How the results depend on the processing

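The NK share was lower in Vldlr-/- in every setting, by widely different amounts. The shares were 1.28% in Vldlr-/- and 3.73% in WT with at most 15% mitochondrial UMIs, 1.56% and 4.67% with at least 1000 genes, and 1.21% and 4.39% with up to 3 Cd3 UMIs. With Trac, Trbc1, Trbc2 and Cd79b also at 0 UMIs they were 0.440% and 0.516%, from 8 members each. Genes at least 2-fold higher and lower numbered 42 and 117 as reported, 14 and 8 of 514 under that last rule, 4 and 11 of 324 with members thinned to 1000 UMIs, 4 and 4 of 824 with at least 100 UMIs, and 1543 and 2915 of 11493 with at least 1 UMI. Under the stricter exclusion more genes were thus higher than lower, opposite to the reported balance. The median of activating receptors moved to -0.27 under the stricter exclusion and to -0.43 after thinning. The sign turned for Il7r, to -0.48 without the deepest members and to -0.44 without the members with Mki67, Cxcr6 or at least 5 Il7r UMIs, and for Isg15, to 0.051 under the stricter exclusion. Smaller ratios that changed sign were those of Hmgb2 (0.86), Xcl1 (2.84), Ifi203 (0.51) and Klra4 (-0.36) under that exclusion and of Itgam (0.31), Xcl1 (1.86) and Eomes (0.09) after thinning. Ccl5, Gzmb, Klra7, Klra9 and Prf1, all near 0, also took both signs. The interferon list's median was -0.28 without 1 WT member. Of the 14 alternatives for single genes, 4 keep exactly the same members and so cannot change a ratio, and TMM scaling moves all alike, which makes the next counts less telling. Ratios past 2-fold in all 14 alternatives were those of Gdpd3, Trim12a, Lef1, Ifng, Klra1, Zbtb38, Gm26917, Gm43305, Dab2ip, Plekha5, Esf1 and Cers2. Every alternative reuses counts of the same libraries, so this gives these ratios no independent check. Trim12a, Gm43305, Dab2ip, Plekha5, Esf1 and Cers2 passed the UMI limit wholly or almost wholly through WT, with 0 to 5 UMIs in Vldlr-/-. All 6 Klra1 UMIs of Vldlr-/- were in 1 member, and 1 member held 19 of its 42 Gm26917 UMIs. Ccl4 was past 2-fold in 12 of 14 (-1.94 to -0.10), Ccl3 in 13 of 14 (-1.68 to -0.50), and Klra4 lay between -0.36 and 0.74. The cause of these moves was not tested. Scaling by TMM shifted every ratio by -0.02. No paired analysis was possible because each group is 1 library, and for the same reason no replicate could be left out.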
